A study of Mus musculus with 24 samples.

Results

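The nuclear genes for subunits of the mitochondrial respiratory chain were followed through ear skin and skin grafts of mice with and without the human papillomavirus 16 oncogene E7. Members were the rows whose gene symbol begins with Ndufa, Ndufb, Ndufc, Ndufs, Ndufv, Uqcr, Cox4 to Cox8 or Atp5, or is Sdha, Sdhb, Sdhc or Sdhd, with the Ndufaf assembly factors left out; where a file gave no symbol, the mouse symbol of the Entrez identifier was used. The rule found 91 of the 27180 rows, of which 41 belonged to complex I, 4 to complex II, 9 to complex III, 20 to complex IV and 17 to complex V. Of the 91, 81 are annotated subunit genes, 5 are pseudogenes (Ndufa11b, Ndufs5-ps, Ndufs6b, Uqcrh-ps1 and Atp5c1-ps) and 2 are further copies of Ndufb4 (Ndufb4b and Ndufb4c). The other 3, Cox7a2l, Atp5s and Atp5sl, carry the symbol without being structural subunits. Another 3 rows that RefSeq names as subunits (Atp5g2, Atp5md and Atp5mpl) carry other symbols in the files and stood outside the rule.

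Each of the 8 groups held 3 libraries of total RNA. CD1dKOxE7 grafts were ear skin of donors that lack CD1d, the molecule that presents lipids to natural killer T cells, and carry the K14E7 transgene. E7 grafts were ear skin of K14E7 donors, in which E7 is expressed from the keratin 14 promoter of basal keratinocytes, and C57 grafts were ear skin of C57BL/6 donors without the transgene. All grafts were placed on C57BL/6 recipients, which carry neither change, and were taken 14 or 28 days after grafting. Whole ear skin came ungrafted from K14E7 mice and from C57BL/6 controls, both 8 weeks old and on the C57BL/6 strain. Grafts can also hold recipient blood vessels and immune cells beside donor skin, and the CD1d deletion had no comparison group without E7.

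The respiratory chain passes electrons from NADH, through complex I, and from succinate, through complex II, to coenzyme Q, complex III, cytochrome c and complex IV, where oxygen is reduced. Complexes I, III and IV pump protons across the inner mitochondrial membrane, and complex V, the ATP synthase, makes ATP as the protons return. Most subunits are encoded in the nucleus and imported, while mitochondrial DNA encodes a few core subunits of every complex except complex II, which is also an enzyme of the citrate cycle. Skin epidermis draws much of its ATP from glycolysis, and the muscle sheet under mouse skin is rich in mitochondria and uses muscle isoforms of several complex IV subunits.

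Upstream sequences of 6 members are given as examples. Of the 91 members, 70 had an entry in the RefSeq promoter table (GRCm38.p6), and the 250 bases before the start were searched on both strands for GCGCNTGCG, the core of sites bound by the factor NRF1, and for CCGGAAG, the core of sites bound by ETS factors such as GABP. The NRF1 core stood in 16 of 70 members (22.9%), against 5.88% of 27025 genes, and the ETS core in 12 of 70 (17.1%), against 7.83% of all genes. Cox6a1, Atp5h and Sdhd, which hold both cores, and Ndufs6, a member with the NRF1 core that was higher in E7 grafts on day 28, are set beside the muscle isoforms Cox7a1 and Cox8b, whose last 150 upstream bases held neither. Capitals mark matches to either core or its reverse complement.
Cox6a1 (ubiquitous complex IV isoform, chr5:115348959-115349108, minus strand): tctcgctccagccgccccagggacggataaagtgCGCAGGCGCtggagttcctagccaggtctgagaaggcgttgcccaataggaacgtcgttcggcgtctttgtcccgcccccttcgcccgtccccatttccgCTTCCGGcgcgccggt
Atp5h (complex V stalk subunit, chr11:115419920-115420069, minus strand): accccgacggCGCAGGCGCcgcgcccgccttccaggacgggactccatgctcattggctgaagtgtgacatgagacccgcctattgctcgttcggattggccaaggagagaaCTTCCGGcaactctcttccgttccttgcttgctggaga
Sdhd (complex II membrane anchor, chr9:50603850-50603999, minus strand): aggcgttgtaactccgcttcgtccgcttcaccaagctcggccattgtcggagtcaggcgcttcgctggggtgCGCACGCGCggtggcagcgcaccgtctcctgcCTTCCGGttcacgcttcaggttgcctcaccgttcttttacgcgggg
Ndufs6 (complex I accessory subunit, chr13:73328483-73328632, minus strand): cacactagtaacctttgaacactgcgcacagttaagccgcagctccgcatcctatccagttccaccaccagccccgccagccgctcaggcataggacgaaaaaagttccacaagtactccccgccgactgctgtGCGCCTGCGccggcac
Cox7a1 (muscle complex IV isoform, chr7:30184021-30184170, plus strand): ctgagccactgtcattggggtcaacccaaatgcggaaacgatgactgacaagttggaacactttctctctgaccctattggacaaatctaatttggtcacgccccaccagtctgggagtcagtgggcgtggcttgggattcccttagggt
Cox8b (muscle complex IV isoform, chr7:140900447-140900596, minus strand): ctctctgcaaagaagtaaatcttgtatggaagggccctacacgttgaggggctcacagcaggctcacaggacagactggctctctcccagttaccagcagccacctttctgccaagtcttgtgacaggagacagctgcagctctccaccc
A match is a run of letters and not a measured binding site. The NRF1 core stood in 7 of 37 members that were higher in E7 grafts on day 28 and in 7 of the 29 other tested members with an entry. The ETS core stood in 7 of the 37 and in 3 of the 29. Of other letters searched, CTANNNNTA, a core of sites bound by the muscle factor MEF2, stood in 11 of 70 members (15.7%), against 21.4% of all genes. Cox7a1 was among the 11, with its match outside the 150 bases printed. The E-box CANNTG stood in 45 of 70 (64.3%), against 69.3%.

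Library totals ran between 6550011 and 13814448 counts. Levels are given as CPM, each library's counts scaled to a common total and adjusted with TMM (trimmed mean of M-values) factors, and a count of 3 corresponded to 0.203 to 0.476 CPM. A gene is called higher or lower where the adjusted p of edgeR's quasi-likelihood test, with Benjamini-Hochberg adjustment over all genes tested, was below 0.05. Where genes named for such a call are said not to overlap between groups, this describes the same values and is no further evidence. The labels do not say whether the 3 libraries of a graft group came from separate recipients, so p-values measure the spread between these libraries. Keratinocyte markers summed to 29610 CPM or more in every library. Skeletal muscle markers summed to 6829 to 12229 CPM in C57 ears and to 232 CPM in the lowest graft library, E7 day 14 replicate 2. In bulk skin, fewer cells of a type and less RNA per cell cannot be told apart. All ears were sequenced on another flow cell than the grafts, and CD1dKOxE7 grafts on another lane than E7 and C57 grafts.

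Counting did not resolve every member. Cox7b2 and Cox8c had 0 counts in all 24 libraries and Uqcr11 had 2 counts in all, while Ndufa12 (74 counts) and Sdhd (132 counts) never passed 19 counts in a library. Several of the low or odd members have near-identical copies elsewhere, and reads may have been split or dropped between them: in CD1dKOxE7 grafts on day 28, Ndufb4 stood at 1.49 ± 0.415 CPM beside 21.3 ± 1.68 CPM for its copy Ndufb4b and 17.9 ± 1.58 CPM for Ndufb4c, and Ndufs5 at 13.0 ± 0.796 CPM beside 33.4 ± 0.928 CPM for the pseudogene Ndufs5-ps (SD, n = 3). Values of Ndufb4, Ndufs5, Ndufs6, Uqcrh, Atp5c1 and their copies are therefore uncertain. The low-count filter kept 87 members in the ear fit and 86 in the graft fits.

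On day 28 after grafting, E7 grafts had higher levels than C57 grafts across 4 of the 5 complexes. Of 86 members tested, 46 were higher in E7 grafts and 2 lower, where 20.7% of all 16189 genes tested were higher and 14.7% lower. The median log2 fold change was 0.27 over the members and 0.01 over all genes tested. Higher members numbered 21 of 40 in complex I, 6 of 8 in complex III, 9 of 18 in complex IV and 10 of 17 in complex V. In complex II, 0 of 3 passed in either direction at edgeR's threshold, and 0 had an unadjusted p under 0.05. Of the 46, 34 passed under every alternative setting tried, and leaving out 1 library gave 38 to 46. Of the 2 lower members, 0 passed under every alternative setting.

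**Figure D1:**
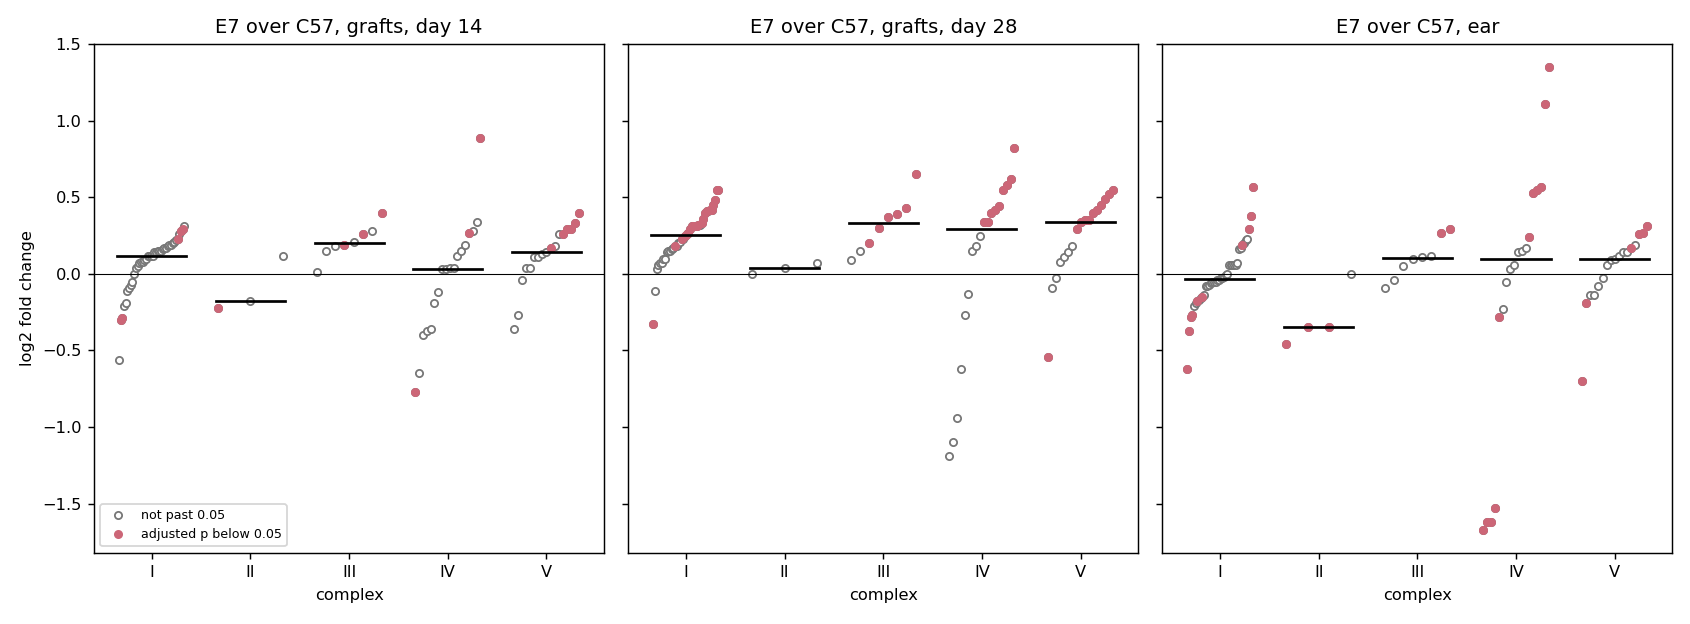
Log2 fold change of every tested member, E7 over C57, by complex, in grafts on day 14, grafts on day 28 and ear; filled points passed an adjusted p of 0.05, black lines are medians. On day 28 the medians of complexes I, III, IV and V lie at 0.26, 0.33, 0.29 and 0.34 and that of complex II at 0.04, while in ear the median of complex II lies at -0.35.

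Summed over a complex, the same difference stood clear of the spread between libraries. Complex I summed to 1776, 1830 and 1753 CPM in the 3 E7 grafts on day 28, against 1527, 1595 and 1530 CPM in the 3 C57 grafts. Complex III summed to 717, 723 and 717 CPM in E7 grafts, against 574, 602 and 596 CPM in C57 grafts. Complex V summed to 2586, 2600 and 2573 CPM in E7 grafts, against 1994, 2102 and 2026 CPM in C57 grafts. In these 3 complexes every E7 graft stood above every C57 graft, as in complex IV, with 1178 to 1298 CPM in E7 grafts and 994 to 1061 CPM in C57 grafts. Complex II summed to 319 to 329 CPM in E7 grafts and 310 to 328 CPM in C57 grafts, with the libraries of both overlapping. With TMM factors the C57 grafts of day 28 had the lowest mean of the 8 groups in complexes I, III, IV and V, at 1551, 591, 1022 and 2041 CPM. Scaled to library totals alone, they stayed lowest in complexes III and V, while complex I averaged 1631 CPM in C57 grafts of day 28 and 1587 CPM in C57 grafts of day 14.

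**Figure D2:**
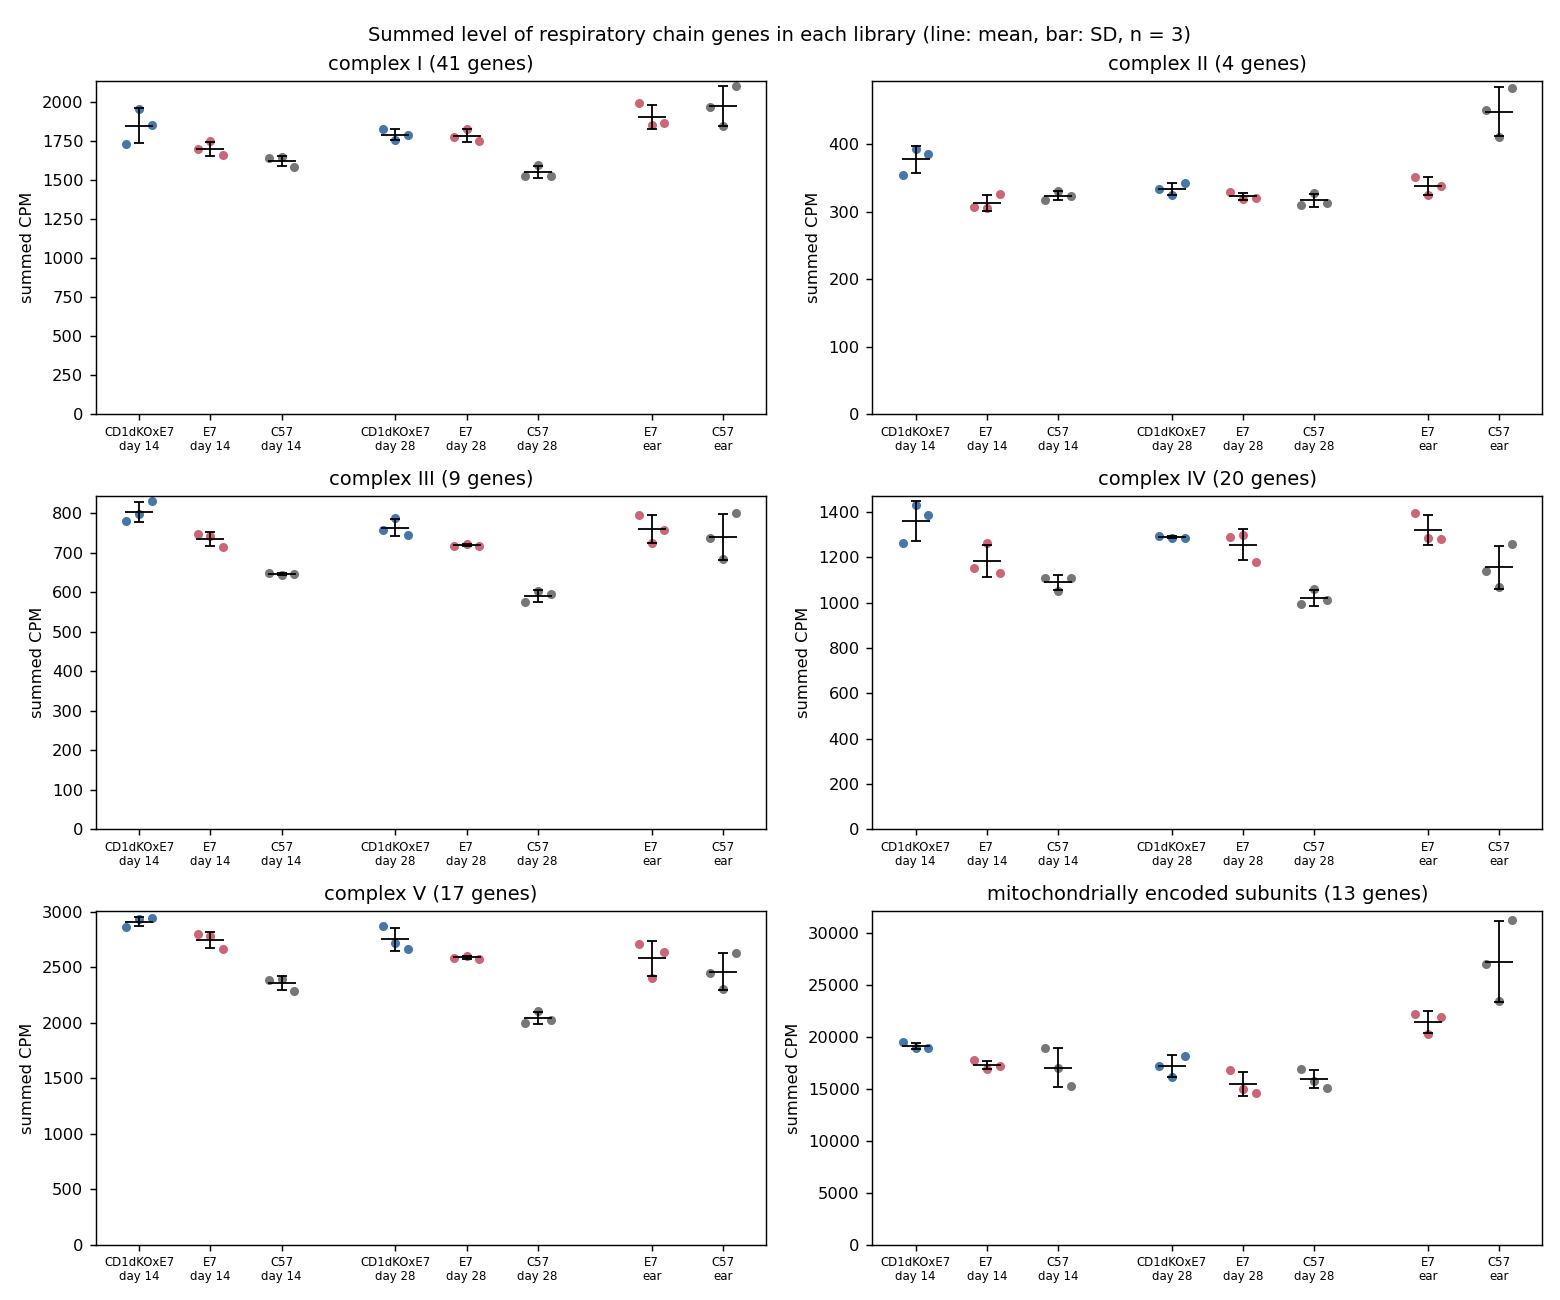
Summed CPM of the members of each complex, and of the 13 mitochondrially encoded subunits, in each library (points), with the mean and SD of each group (n = 3). On day 28 the E7 grafts lie above the C57 grafts in complexes I, III, IV and V and overlap them in complex II, and in ear the E7 libraries lie below the C57 libraries in complex II and in the mitochondrially encoded subunits.

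Among complex I members on day 28, the clearest differences lay in Ndufb7, an accessory subunit of the membrane arm, Ndufs8, a core subunit that holds iron-sulfur clusters, and Ndufs6, an accessory subunit. Ndufb7 (chr8:83566758-83571623, GRCm38.p6) had 45.6, 46.0 and 46.0 CPM in E7 grafts, against 30.4, 33.6 and 31.0 CPM in C57 grafts. The groups did not overlap, and its log2 fold change was 0.55 ± 0.08 (SE), with an adjusted p of 0.000166. Ndufs8 averaged 51.8 ± 2.34 CPM in E7 grafts and 40.7 ± 3.54 CPM in C57 grafts (SD, n = 3 each; log2 fold change 0.36). Ndufs6 averaged 22.5 ± 1.19 CPM in E7 grafts and 16.4 ± 1.62 CPM in C57 grafts. Its pseudogene Ndufs6b, which leaves the values of Ndufs6 uncertain, was also called higher. The core subunits Ndufs1 and Ndufv1, which carry the iron-sulfur clusters and the flavin of the NADH-oxidising arm, were 1.24 and 1.20 times higher. One member of that arm went the other way: Ndufv3, an accessory subunit, had 42.2, 47.4 and 39.7 CPM in E7 grafts, against 53.3, 56.1 and 55.6 CPM in C57 grafts, a log2 fold change of -0.33 (adjusted p = 0.0176). This call was lost on leaving out C57 replicate 2 or E7 replicate 1 or 3.

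In complex III, Uqcrq, a small subunit of the membrane part, differed most. It had 63.7, 66.4 and 51.5 CPM in E7 grafts, against 40.7, 39.6 and 36.4 CPM in C57 grafts. All E7 grafts were above all C57 grafts, with a log2 fold change of 0.65 ± 0.11 (SE; adjusted p = 0.000315). Uqcrb was 1.34 times higher, the core protein Uqcrc1 1.23 times and Uqcrfs1, the Rieske iron-sulfur protein, 1.29 times. The 8 tested members of complex III all had positive fold changes.

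In complex IV the 3 smallest adjusted p belonged to Cox6a1, Ndufa4 and Cox6b1. Ndufa4 (chr6:11900372-11907450), once assigned to complex I and now known as a complex IV subunit, had 157, 160 and 166 CPM in E7 grafts, against 86.9, 94.7 and 95.3 CPM in C57 grafts. Every E7 graft was above every C57 graft, and the log2 fold change was 0.82 ± 0.11 (SE; adjusted p = 3.76e-05), the largest increase among the tested members. Cox6a1 (chr5:115345652-115348958), the isoform used outside heart and muscle, had 176, 170 and 151 CPM in E7 grafts, against 108, 119 and 110 CPM in C57 grafts, again without overlap (log2 fold change 0.58, adjusted p = 2.07e-05). Cox6b1 averaged 104 ± 6.62 CPM in E7 grafts and 78.9 ± 3.64 CPM in C57 grafts. Cox4i1, the common isoform of the regulatory subunit 4, did not pass, with 212 ± 15.8 CPM in E7 grafts and 189 ± 11.1 CPM in C57 grafts (adjusted p = 0.119).

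Complex V holds the most abundant members, and its catalytic core was among those that were higher. Atp5b, the catalytic beta subunit (chr10:128083307-128090388), had 845, 869 and 869 CPM in E7 grafts, against 640, 665 and 651 CPM in C57 grafts. Its log2 fold change was 0.42 ± 0.07 (SE; adjusted p = 0.000267), with no overlap. Atp5g3, a gene for the membrane ring that turns with the proton flow, had 260, 256 and 241 CPM in E7 grafts, against 165, 185 and 175 CPM in C57 grafts (log2 fold change 0.55, adjusted p = 2.22e-05). Atp5o and Atp5f1, of the stalk that holds the catalytic head, were 1.43 and 1.40 times higher, and the alpha subunit Atp5a1 1.22 times. Atp5s, a factor that is not a structural subunit, was the lower one, with 7.43 ± 1.32 CPM in E7 grafts and 11.0 ± 1.38 CPM in C57 grafts (log2 fold change -0.54).

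The succinate dehydrogenase subunits stood apart from this pattern on day 28. Sdha, the flavoprotein that oxidises succinate, had 181, 165 and 166 CPM in E7 grafts, against 160, 172 and 162 CPM in C57 grafts (log2 fold change 0.07 ± 0.06 SE; adjusted p = 0.399). Sdhb, the iron-sulfur subunit, averaged 69.7 ± 4.33 CPM in E7 grafts and 68.8 ± 1.64 CPM in C57 grafts. Sdhc, a membrane anchor, averaged 81.9 ± 5.32 CPM in E7 grafts and 83.0 ± 1.10 CPM in C57 grafts. The libraries of both groups overlapped for all 3 genes. The difference between complex II and the other complexes was not tested.

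The 13 subunits encoded in mitochondrial DNA did not follow the nuclear ones on day 28. Of 13 tested, 0 were higher and 1 was lower, mt-Nd4l, with a log2 fold change of -0.33; the median was -0.02. Their sum was 14580 to 16780 CPM in E7 grafts and 15099 to 16865 CPM in C57 grafts. Over all genes tested, 20.7% were higher and 14.7% lower. Among other nuclear genes of mitochondria, 39 of 75 tested genes of the mitochondrial ribosome were higher and 0 lower (median 0.27). Assembly factors had 11 of 44 higher and 2 lower, a share of higher genes not far above that of all genes. Citrate cycle genes had 4 of 13 higher and 0 lower. Of 74 genes of the cytosolic ribosome, 5 were higher and 0 lower. Cyc1, the nuclear cytochrome c1 of complex III, which the symbol rule left out, had a log2 fold change of 0.55. Of 15 genes that regulate mitochondrial biogenesis, 7 were higher, among them Tfam, which packages and transcribes mitochondrial DNA (log2 fold change 0.34), Nrf1 (0.37), Gabpa (0.19) and Esrra (0.42), and 1 was lower, Ppargc1a (-1.11).

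**Figure D3:**
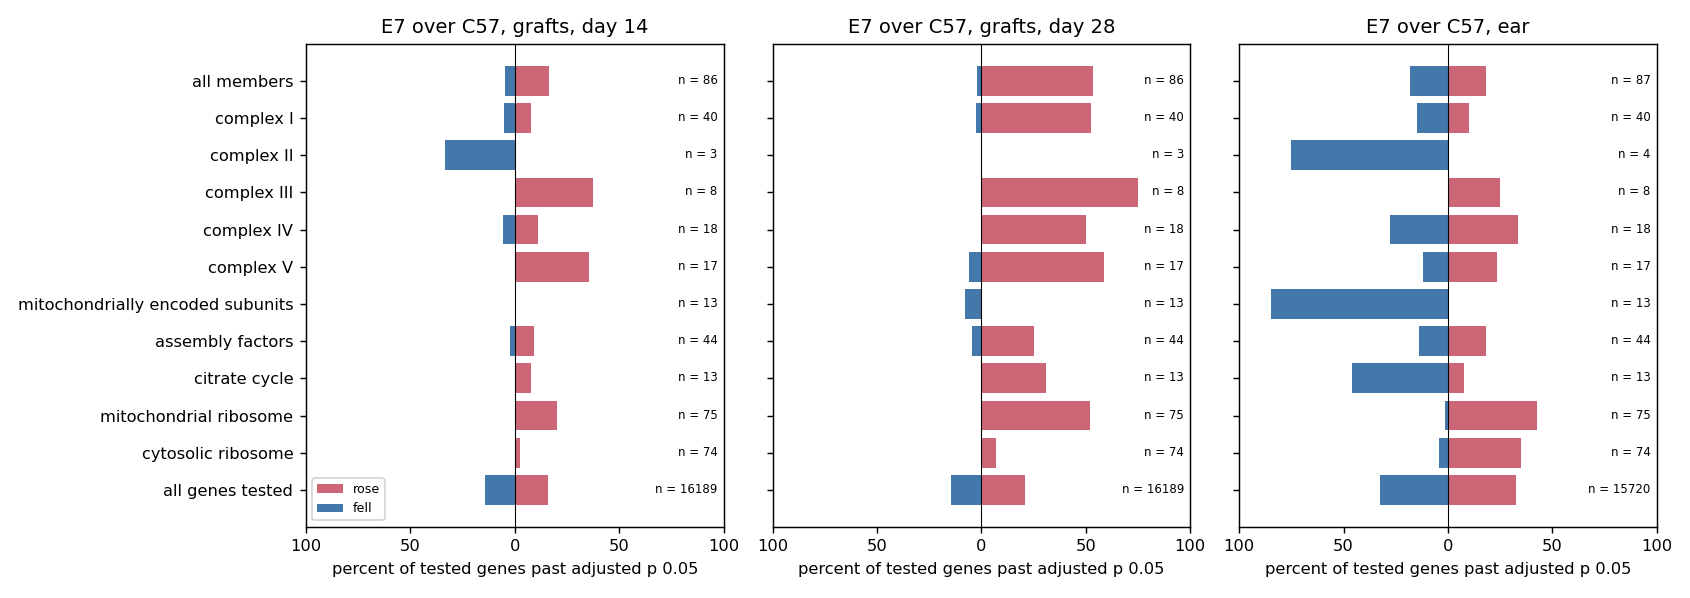
Percent of the tested genes of each list that were higher (right of 0) or lower (left of 0) in E7 than in C57 skin, for grafts on day 14, grafts on day 28 and ear, with the number tested. On day 28, 46 of 86 members and 39 of 75 mitochondrial ribosome genes were higher, against 0 of 13 mitochondrially encoded subunits; in ear, 11 of 13 mitochondrially encoded subunits were lower.

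Other tissue markers moved between the same grafts. The 6 proliferation markers, all higher in E7 grafts, summed to 736 to 838 CPM there and 204 to 277 CPM in C57 grafts on day 28. Keratinocyte markers summed to 48492 to 55360 CPM in E7 grafts and 30602 to 34479 CPM in C57 grafts, and skeletal muscle markers to 1706 to 2047 CPM in E7 grafts and 3119 to 6793 CPM in C57 grafts. The part of these differences in the members' levels was not tested. Fibroblast markers summed to 12670 to 18690 CPM in E7 grafts and 19695 to 36968 CPM in C57 grafts. Among genes with under 1000 exon bases, 20 of 43 members and 23.6% of all genes were higher; among longer genes, 24 of 38 members and 21.1% of all genes were. With upper quartile factors, 47.9% of all called genes were higher, against 58.4% with TMM factors, and 37 members were higher.

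On day 14 fewer members differed. In E7 grafts 14 of 86 members were above C57 grafts at the threshold and 4 were lower, where 15.8% of all genes were higher and 14.4% lower, so the share of higher members, 16.3%, was close to that of all genes. The median was 0.12 over members and -0.04 over all genes. Higher members numbered 6 of 17 in complex V, 3 of 8 in complex III, 3 of 40 in complex I and 2 of 18 in complex IV. Ndufa4 had 205, 258 and 180 CPM in E7 grafts, against 119, 108 and 122 CPM in C57 grafts, a log2 fold change of 0.89 ± 0.11 (SE; adjusted p = 4.95e-05). Atp5g3 averaged 277 ± 10.1 CPM in E7 grafts and 212 ± 10.5 CPM in C57 grafts, Atp5b 964 ± 49.3 CPM in E7 grafts and 796 ± 25.9 CPM in C57 grafts, and Uqcrfs1 107 ± 3.40 CPM in E7 grafts and 81.8 ± 3.72 CPM in C57 grafts. All 3 passed with non-overlapping libraries. In complex I, Ndufs1, Ndufb9 and Ndufa5 were higher by log2 fold changes of 0.28, 0.23 and 0.29. The 4 lower members were Ndufa4l2 (-0.77), Ndufv3 (-0.30), Ndufa13 (-0.29) and Sdhc (-0.22). Sdhc had 65.5, 70.8 and 70.0 CPM in E7 grafts, against 80.8, 78.0 and 84.6 CPM in C57 grafts, with an adjusted p of 0.0124. The other complex II genes did not pass: Sdha had a log2 fold change of 0.12 (adjusted p = 0.161) and Sdhb of -0.18 (adjusted p = 0.192). Leaving out C57 replicate 3 left 9 higher members, the lowest count on leaving out 1 library. The lower members numbered 1 without C57 replicate 3 or E7 replicate 1, and 2 without C57 replicate 1 or E7 replicate 2.

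Markers of other cells also differed between the grafts of day 14. Proliferation markers summed to 1087 to 1190 CPM in E7 grafts and 490 to 559 CPM in C57 grafts, and keratinocyte markers to 59729 to 100788 CPM in E7 grafts and 41234 to 49525 CPM in C57 grafts. Fibroblast markers summed to 16092 to 25489 CPM in E7 grafts and 30472 to 45190 CPM in C57 grafts, and macrophage markers to 522 to 879 CPM in E7 grafts and 1271 to 2453 CPM in C57 grafts. None of these ranges overlapped, and their part in the members' levels was not tested.

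Although more members passed on day 28, the E7 effect itself did not differ detectably between the days. The difference of the effects, day 28 minus day 14, had 0 members past the threshold in edgeR in either direction, where 0.148% of all genes were higher and 0.0185% lower; 17 of 86 members had an unadjusted p under 0.05, and DESeq2 called 1. The median difference was 0.14 over members and 0.05 over all genes, with 69 of 86 members positive. Both effects are measured on the same log2 scale, and each has its own C57 grafts.

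Between the days, several abundant members fell in C57 grafts, at about the rate of all genes. On day 28 against day 14, 5 of 86 members were higher and 12 lower in C57 grafts, where 8.40% of all genes were higher and 14.2% lower; the shares of members were 5.81% and 14.0%. The lower ones included Atp5b, with 640, 665 and 651 CPM on day 28 and 799, 821 and 770 CPM on day 14 (log2 fold change -0.28, adjusted p = 0.00806), Cox6a1 (-0.35), Cox5a (-0.41), Uqcrq (-0.36), Ndufb7 (-0.30), Ndufs3 (-0.26), Atp5d (-0.28) and Atp5g3 (-0.27). The days did not overlap for any of these 8, which were picked by the same values. The call for Ndufs3 was lost under 11 alternatives, DESeq2 and both other scalings among them, and that for Ndufb7 under 7, upper quartile factors among them. Of the 5 higher members, 3 were the muscle isoforms described below, with Cox7a2l, a factor that joins complexes III and IV into supercomplexes (log2 fold change 0.30), and Ndufv3 (0.37). With upper quartile factors 5 members were lower, and 52.2% of all called genes were higher on day 28, against 37.1% with TMM factors; with no low-count filter 5 members were lower. Leaving out day 28 replicate 3 left 7 lower members, and leaving out day 14 replicate 1 or day 28 replicate 2 left 2 higher ones, against 3 without day 14 replicate 2.

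In E7 grafts, 7 of 86 members were higher on day 28 than on day 14 and 1 was lower, where 7.68% of all genes were higher and 9.48% lower. The share of higher members was thus close to that of all genes, and that of lower members was below it. Ndufa4l2, a paralogue of Ndufa4 that hypoxia-inducible factors switch on, changed most, with 114, 140 and 85.5 CPM on day 28 and 40.3, 59.5 and 44.0 CPM on day 14 (log2 fold change 1.25 ± 0.20 SE, adjusted p = 0.0016). Every day 28 library was above every day 14 library. Ndufa13, a subunit also known as GRIM-19, Ndufa7, Ndufv3, Sdhc and Cox7a2l were higher by 0.39, 0.35, 0.34, 0.27 and 0.36 on the log2 scale. Ndufa4 was the lower one, at 161 ± 4.95 CPM on day 28 and 214 ± 39.8 CPM on day 14 (log2 fold change -0.40). Leaving out E7 replicate 1 of day 14 left 1 higher member, and leaving out replicate 1 or 2 of day 28 left 3. Of the 7 higher members, 1 passed under every alternative setting, Ndufa4l2, and the lower call for Ndufa4 did not. In CD1dKOxE7 grafts 0 members were higher on day 28 in edgeR and DESeq2, and 3 were lower, Sdhb (-0.39), Cox5a (-0.32) and Atp5e (-0.25), where 10.8% of all genes were higher and 11.8% lower; 9 had an unadjusted p under 0.05, the count of lower members was 0 without replicate 2 of day 28, 1 without replicate 1 of day 28 and 5 without replicate 1 of day 14, and 2 were higher without replicate 2 of day 14.

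Ndufa4 was higher with E7 in grafts of both days and in ear. In ear skin it averaged 279 ± 8.01 CPM in E7 mice, with 270 CPM in the lowest, against 134, 116 and 138 CPM in C57 mice, a log2 fold change of 1.11 ± 0.07 (SE; adjusted p = 2.47e-07). Its paralogue Ndufa4l2 (chr10:127509274-127517154) had no such common direction. In ear it had 76.9, 50.8 and 62.2 CPM in E7 mice, against 24.2, 23.4 and 27.0 CPM in C57 mice, a log2 fold change of 1.35 ± 0.14 (SE; adjusted p = 5.76e-05). On day 14 it had 40.3, 59.5 and 44.0 CPM in E7 grafts, against 102, 63.0 and 83.3 CPM in C57 grafts, a log2 fold change of -0.77 (adjusted p = 0.00979). On day 28 the groups overlapped, with 85.5 to 140 CPM in E7 grafts and 92.7 to 110 CPM in C57 grafts. C57 ear had the lowest Ndufa4l2 of the 8 groups, and all 18 graft libraries, between 40.3 and 140 CPM, were above the highest C57 ear, at 27.0 CPM.

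**Figure D4:**
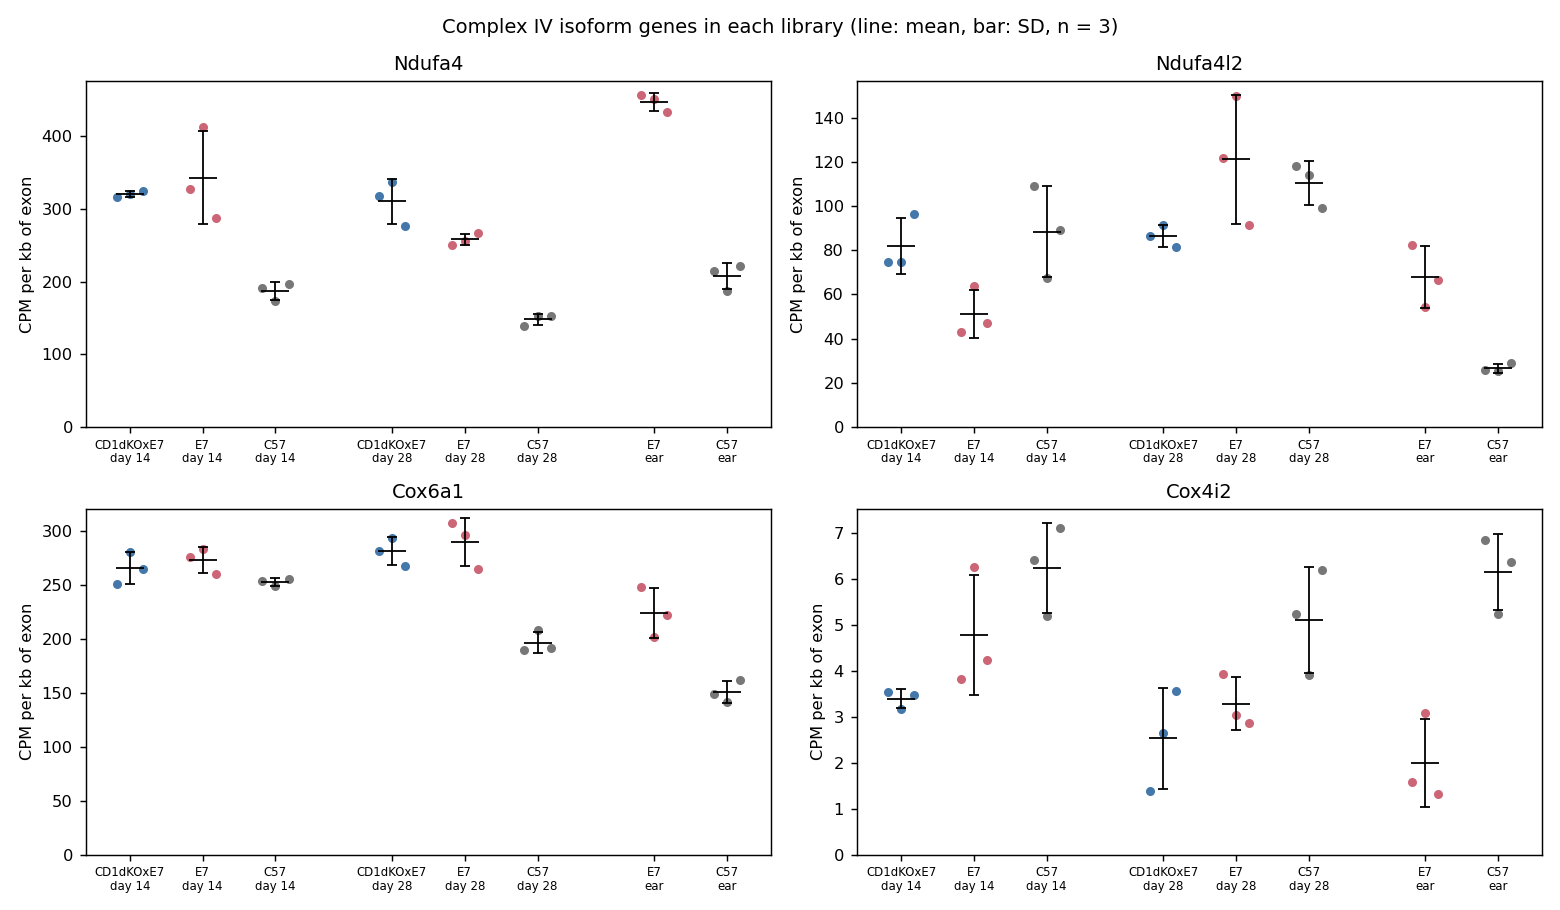
CPM per kb of exon of Ndufa4, Ndufa4l2, Cox6a1 and Cox4i2 in each library, with the mean and SD of each group (n = 3). Ndufa4 is at 433 to 457 in the E7 ears and at 187 to 221 in the C57 ears; Ndufa4l2 is at 54.4 to 82.3 in the E7 ears and at 25.1 to 28.9 in the C57 ears.

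In ear skin as many members were higher as lower. Of 87 members, 16 were higher in E7 ears and 16 lower, where 32.6% of all 15720 genes were higher and 32.7% lower; the median was 0.00 over members and over all genes. In complex III, 2 of 8 were higher and 0 lower, and in complex V 4 of 17 higher and 2 lower, while complex I had 4 of 40 higher and 6 lower. With upper quartile factors, which moved the median of all genes to -0.12, the counts were 6 higher and 31 lower, and the split of all calls moved to 39.1% higher, against 50% with TMM factors. The direction of the smaller ear differences therefore rests on the scaling.

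Complex II was lower in E7 ears, with 3 of 4 members past the threshold, where 32.6% of all genes were higher and 32.7% lower. Sdha had 183, 173 and 174 CPM in E7 ears, against 249, 221 and 258 CPM in C57 ears (log2 fold change -0.46 ± 0.07 SE, adjusted p = 0.000149). Sdhb had 80.7, 72.9 and 78.8 CPM in E7 ears, against 99.1, 90.9 and 107 CPM in C57 ears (log2 fold change -0.35), and Sdhc 87.1, 77.6 and 83.8 CPM in E7 ears, against 102, 98.7 and 117 CPM in C57 ears (log2 fold change -0.35). None of the 3 overlapped. Sdhd, near the counting floor, had 0.674 to 1.14 CPM in E7 ears and 0.601 to 1.29 CPM in C57 ears. Mitochondrially encoded subunits moved the same way, with 11 of 13 lower and a median of -0.38, and so did 6 of 13 citrate cycle genes, with 1 higher. The 20 skeletal muscle markers, all lower, summed to 2305 to 3481 CPM in E7 ears and 6829 to 12229 CPM in C57 ears. Fibroblast markers summed to 2251 to 4398 CPM in E7 ears and 7993 to 8874 CPM in C57 ears, and adipocyte markers to 371 to 431 CPM in E7 ears and 990 to 1307 CPM in C57 ears. Proliferation markers summed to 1361 to 1472 CPM in E7 ears and 165 to 244 CPM in C57 ears, and keratinocyte markers to 52665 to 60008 CPM in E7 ears and 29610 to 32721 CPM in C57 ears. The part of these cells in the ear differences was not tested.

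In complex I of the ear, Ndufa13 and Ndufv3 were lower most clearly. Ndufa13 had 41.3, 39.6 and 34.6 CPM in E7 ears, against 58.0, 53.5 and 66.0 CPM in C57 ears (log2 fold change -0.62 ± 0.09 SE, adjusted p = 0.000156), without overlap. Ndufv3 was also below C57 in ear, with 55.6 ± 2.70 CPM in E7 ears and 71.9 ± 3.80 CPM in C57 ears, as it was in the grafts of both days. Its graft calls were lost on leaving out some single libraries, in 4 fits for day 14 and 3 for day 28. Ndufa11 and Ndufa1 were higher, by 0.29 and 0.38 on the log2 scale, and so was the pseudogene Ndufa11b, by 0.57. In complex III, Uqcr10 and Uqcrq were higher by 0.29 and 0.27. In complex V, Atp5f1, Atp5g3 and Atp5k were higher by 0.26, 0.27 and 0.31 and Atp5s lower by a log2 fold change of -0.70. With upper quartile factors the calls for Ndufa11, Ndufa11b, Uqcr10, Uqcrq, Atp5f1, Atp5g3 and Atp5k were lost. The call for Ndufa11b was lost under 6 alternatives in all.

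In complex IV of the ear the muscle isoforms were lower. Of their common counterparts, Cox6a1 and Cox7a2 were higher, and Cox8a did not pass (log2 fold change 0.15, edgeR adjusted p = 0.0754). Cox6a1 had 142, 115 and 127 CPM in E7 ears, against 85.0, 80.9 and 92.6 CPM in C57 ears (log2 fold change 0.57, adjusted p = 0.000103). Its muscle counterpart Cox6a2 (chr7:128205435-128206366) had 24.5, 21.2 and 16.4 CPM in E7 ears, against 64.2, 51.0 and 82.6 CPM in C57 ears (log2 fold change -1.67 ± 0.23 SE, adjusted p = 0.00089). Cox8b and Cox7a1, the muscle isoforms of subunits 8 and 7a, had log2 fold changes of -1.62 and -1.53, and no library overlapped. Per kb of exon, Cox6a2 made up 11.9 ± 1.91% of Cox6a2 and Cox6a1 together in E7 ears and 38.8 ± 4.11% in C57 ears, and Cox8b made up 13.0 ± 3.68% of Cox8b and Cox8a in E7 ears and 33.7 ± 5.21% in C57 ears (SD, n = 3 each). Cox4i2, the isoform of subunit 4 that is typical of lung and raised by low oxygen, was also lower, with 1.25, 2.44 and 1.04 CPM in E7 ears, against 5.40, 4.13 and 5.01 CPM in C57 ears (log2 fold change -1.62). Cox4i1, its common counterpart, had 220 ± 9.24 CPM in E7 ears and 229 ± 15.4 CPM in C57 ears and did not pass.

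The 3 muscle isoforms were also higher in C57 grafts on day 28, where muscle markers were. In C57 grafts Cox6a2 had 13.4, 21.7 and 9.07 CPM on day 28 and 2.28, 5.84 and 2.86 CPM on day 14 (log2 fold change 2.04, adjusted p = 0.0107), and the muscle markers summed to 5493, 6793 and 3119 CPM on day 28 and 611, 1854 and 530 CPM on day 14. The library with the most muscle RNA in each of these groups, replicate 2, also had the most Cox6a2, Cox7a1 and Cox8b. Cox7a1 and Cox8b were higher by 1.85 and 2.07 on the log2 scale. The call for Cox6a2 was lost without day 14 replicate 1 or day 28 replicate 2. That for Cox8b was lost without either of these or without day 14 replicate 3. In E7 grafts on day 28 the 3 isoforms lay below C57 grafts without passing, with log2 fold changes of -1.10 for Cox6a2, -0.94 for Cox7a1 and -1.19 for Cox8b. Without these 3 genes, the counts for E7 against C57 on day 28 were 46 higher and 2 lower of 83, and in ear 16 higher and 13 lower of 84.

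**Figure D5:**
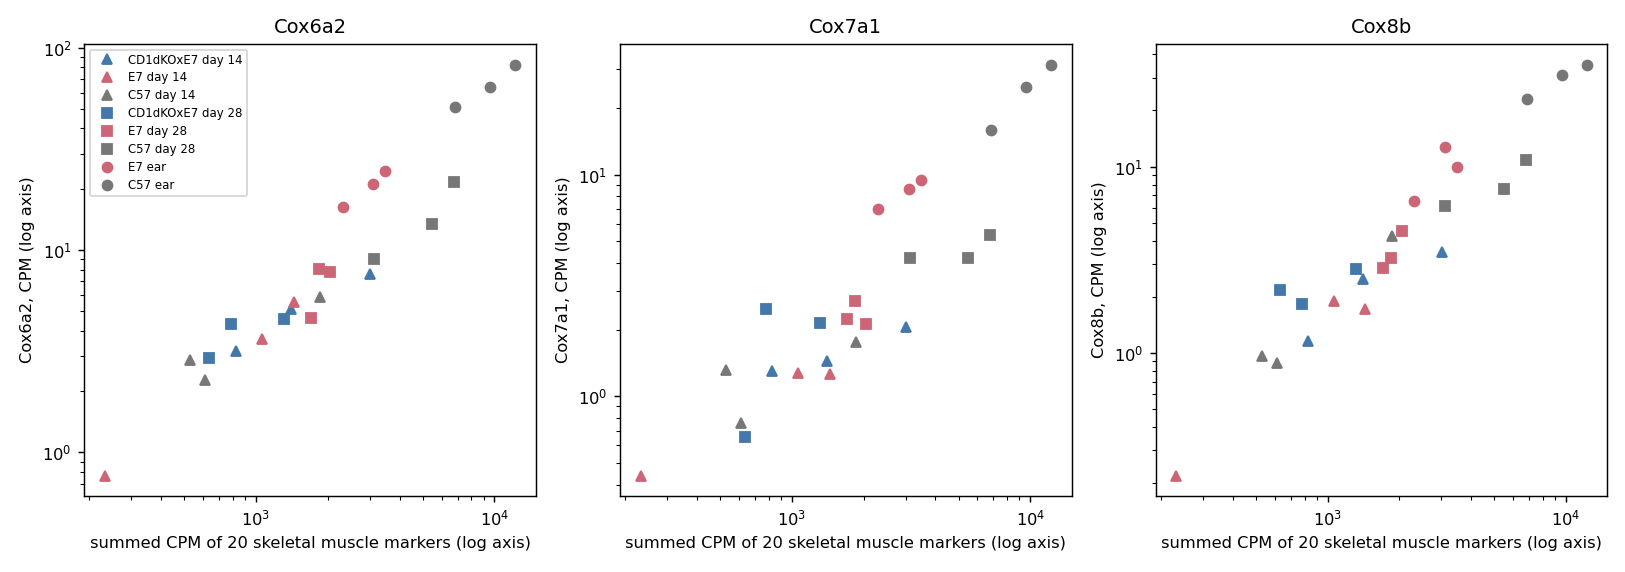
CPM of Cox6a2, Cox7a1 and Cox8b against the summed CPM of 20 skeletal muscle markers in each of the 24 libraries, both on log axes. C57 ears lie at the upper right, with marker sums of 6829 to 12229 CPM, and the lowest point in each panel is an E7 graft of day 14 with a marker sum of 232 CPM.

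Grafted C57 skin had lower levels of much of the chain than ungrafted C57 ear. On day 14, 7 of 86 members were higher and 40 lower in grafts than in ear, where 30.6% of all 16612 genes were higher and 22.0% lower, and on day 28, 5 were higher and 53 lower, where 21.3% were higher and 18.0% lower. The member medians were -0.18 on day 14 and -0.32 on day 28, and those of all genes 0.06 and 0.00. Complex I had 22 of 40 lower members on day 14 and 24 on day 28, and 0 higher on either day. All 3 tested complex II genes were lower on both days: Sdha had 162 ± 8.93 CPM in grafts of day 14, 165 ± 6.73 CPM in grafts of day 28 and 243 ± 19.6 CPM in ear (SD, n = 3 each). All 13 mitochondrially encoded subunits were lower too, with medians of -0.97 on day 14 and -1.14 on day 28.

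Single members differed widely between grafts and ear. Ndufa6, a complex I subunit of the arm that meets the matrix, had 11.6, 11.2 and 10.6 CPM in C57 grafts of day 14, against 27.1, 29.2 and 28.4 CPM in C57 ear (log2 fold change -1.34 ± 0.13 SE, adjusted p = 1.26e-07). Ndufb9 had 78.9 ± 2.76 CPM in grafts of day 14, 78.5 ± 1.17 CPM in grafts of day 28 and 129 ± 6.99 CPM in ear. Ndufs3 was lower by a log2 fold change of -0.83 on day 28, and Atp5c1, whose pseudogene leaves it uncertain, by -0.55. In complex III, Uqcrc1 was lower by log2 fold changes of -0.34 on day 14 and -0.50 on day 28. Members that were higher in grafts on both days included Ndufa4l2 (1.73 on day 14 and 2.05 on day 28), Cox6a1 (0.75 and 0.38) and Atp5e (0.39 and 0.41). Marker sums differed between C57 grafts of day 14 and C57 ear in many cell types. Skeletal muscle markers summed to 530 to 1854 CPM in grafts and 6829 to 12229 CPM in ear, fibroblast markers to 30472 to 45190 CPM in grafts and 7993 to 8874 CPM in ear, and macrophage markers to 1271 to 2453 CPM in grafts and 525 to 616 CPM in ear. Sebaceous markers summed to 2034 to 2547 CPM in grafts and 6032 to 8030 CPM in ear, and adipocyte markers to 250 to 419 CPM in grafts and 990 to 1307 CPM in ear. On day 28, fibroblast markers in C57 grafts summed to 19695 to 36968 CPM. The part of these cells in the members' levels was not tested. Ears and grafts were on different flow cells, so grafting and flow cell cannot be told apart in these counts.

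The E7 effect differed between grafts and ear for some members. For day 28 grafts minus ear, 11 of 86 members had a higher effect in grafts and 1 a lower one, where 2.29% of all genes were higher and 5.13% lower, with a member median of 0.24 and 0.01 over all genes. Among the 11 were Ndufa13 (0.63), Sdha (0.51), Ndufs3 (0.51), Ndufb9 (0.38), Uqcrc1 (0.38), Ndufs1 (0.35), Atp5o (0.33), Sdhc (0.33), Atp5a1 (0.30) and Ndufa9 (0.29), and the lower one was Ndufa4l2 (-1.21). Leaving out 1 library gave 4 to 14, with 4 without C57 ear replicate 3, 6 without E7 ear replicate 2 or C57 graft replicate 1, and 7 without C57 ear replicate 1, E7 ear replicate 3, C57 graft replicate 3 or E7 graft replicate 2. DESeq2 called 19, and with upper quartile factors 49% of all called genes were higher, against 30.9% with TMM factors. For day 14 grafts minus ear, 3 were higher, Sdha (0.56), Ndufb9 (0.36) and Ndufs1 (0.33), and 2 lower, Ndufa4l2 (-2.13) and Cox6a1 (-0.46), where 4.02% of all genes were higher and 8.61% lower; upper quartile factors gave 12 higher, and 55.2% of all called genes higher, against 31.8% with TMM factors. Without C57 ear replicate 2, 5 were higher, and without E7 ear replicate 1, 1 was lower. Both comparisons use the same ears.

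CD1dKOxE7 grafts had members above E7 grafts on day 14, at a share little above that of all genes, and none called on day 28. On day 14, 17 of 86 members were higher and 0 lower in edgeR and DESeq2, where 15.1% of all genes were higher and 14.8% lower; 25 had an unadjusted p under 0.05, and the member median was 0.12 against -0.03 over all genes. Higher members numbered 7 of 18 in complex IV, 6 of 40 in complex I, 2 of 3 in complex II and 1 each in complexes III and V. Among genes with under 1000 exon bases, 9 of 43 members were higher and 0 lower, where 18.9% of all were higher and 7.81% lower. Among longer genes, 8 of 38 members were higher and 0 lower, where 15.2% of all were higher and 15.9% lower. Cox5a, a subunit on the matrix side of complex IV (chr9:57517328-57532427), had 89.8, 93.7 and 89.7 CPM in CD1dKOxE7 grafts, against 71.6, 62.5 and 64.0 CPM in E7 grafts (log2 fold change 0.45 ± 0.08 SE, adjusted p = 0.000545). Sdhc had 84.9, 90.3 and 89.5 CPM in CD1dKOxE7 grafts, against 65.5, 70.8 and 70.0 CPM in E7 grafts (log2 fold change 0.35, adjusted p = 0.000459), and Sdhb 84.8, 98.2 and 96.4 CPM in CD1dKOxE7 grafts, against 69.2, 61.5 and 79.0 CPM in E7 grafts (log2 fold change 0.40). No library of one group reached into the other for these 3 genes. Ndufa13 and Ndufa3 were both higher by 0.38, Uqcrh by 0.22, Cox7a2l by 0.39, Cox6b1 by 0.27 and Atp5e by 0.30.

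The same grafts differed in other cells. T cell markers, all 6 higher, summed to 249 to 303 CPM in CD1dKOxE7 grafts of day 14 and 29.5 to 44.3 CPM in E7 grafts, and keratinocyte markers to 29711 to 44343 CPM in CD1dKOxE7 grafts and 59729 to 100788 CPM in E7 grafts. Macrophage markers summed to 1710 to 2247 CPM in CD1dKOxE7 grafts and 522 to 879 CPM in E7 grafts, and proliferation markers to 697 to 803 CPM in CD1dKOxE7 grafts and 1087 to 1190 CPM in E7 grafts. The part of these cells in the members' levels was not tested, and donor genotype and lane cannot be told apart. Leaving out 1 library gave 9 to 19 higher members, with 9 when CD1dKOxE7 replicate 2 or E7 replicate 3 was left out, and 10 when CD1dKOxE7 replicate 3 was; a fit of these groups alone gave 10.

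On day 28, 0 members passed in either direction between CD1dKOxE7 and E7 grafts in edgeR and in DESeq2, where 0.0741% of all genes were higher and 0.136% lower; 5 members had an unadjusted p under 0.05. The member median was 0.02. Sdha had 182, 184 and 182 CPM in CD1dKOxE7 grafts, against 181, 165 and 166 CPM in E7 grafts (log2 fold change 0.09 ± 0.06 SE, adjusted p = 0.587). The difference between the days, day 28 minus day 14, was itself called for 4 members, all negative: Ndufa4l2 (-1.15), Ndufa13 (-0.54), Sdhc (-0.39) and Atp5e (-0.38), where 6.54% of all genes were higher and 6.31% lower. For Sdhc the means were 80.2 ± 3.75 CPM in CD1dKOxE7 and 81.9 ± 5.32 CPM in E7 grafts on day 28, and 88.2 ± 2.89 CPM in CD1dKOxE7 and 68.8 ± 2.82 CPM in E7 grafts on day 14. The count of 4 became 7 without CD1dKOxE7 replicate 1 of day 14 or replicate 3 of day 28, and 2 without CD1dKOxE7 replicate 2 of day 14, CD1dKOxE7 replicate 1 or 2 of day 28 or E7 replicate 1 of day 14.

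Within isoform sets, the order of levels per kb of exon was the same in most groups. Cox4i1 stood between 247 and 330 CPM per kb over the group means and Cox4i2 between 2.00 and 6.24. Atp5g3 led the 3 genes of the membrane ring in every group, at 242 to 434 CPM per kb, with Atp5g2 at 44.9 to 66.4 and Atp5g1 at 3.75 to 5.32. The exon lengths used were 4912 bases for Atp5g1, 731 for Atp5g2 and 724 for Atp5g3. Not divided by length, C57 grafts of day 28 averaged 18.4 CPM for Atp5g1, 41.2 for Atp5g2 and 175 for Atp5g3. The size of the gap between Atp5g1 and Atp5g2 thus depends on the length used. Cox6b1 stood at 128 to 205 CPM per kb and Cox6b2, known from testis, at 2.73 to 6.28. Cox7b stood at 50.4 to 79.3 CPM per kb, beside Cox7b2 at 0. In other pairs the shares moved between groups. Cox7a2 had 978 counts over all libraries, 13 to 101 in each, against 29517 for Cox6a1. The shares of Cox7a1 beside Cox7a2 are therefore uncertain, and why Cox7a2 was low was not tested. Cox7a1 made up 24.4 ± 14.1% of Cox7a1 and Cox7a2 in E7 grafts and 32.4 ± 9.85% in C57 grafts of day 14, 48.6 ± 5.58% in E7 grafts and 68.4 ± 8.54% in C57 grafts of day 28, and 54.0 ± 5.13% in E7 ears and 82.2 ± 5.06% in C57 ears (SD, n = 3). Ndufa4l2 made up 13.0 ± 1.25% of Ndufa4l2 and Ndufa4 in E7 grafts and 31.8 ± 4.16% in C57 grafts of day 14, 31.7 ± 5.78% in E7 grafts and 42.7 ± 3.24% in C57 grafts of day 28, and 13.1 ± 2.26% in E7 ears and 11.4 ± 0.546% in C57 ears (SD, n = 3).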

How the data were processed

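RNA was measured in 24 libraries of total RNA prepared with a TruSeq kit, per the labels' protocols. The authors deposited whole-number read counts per gene, 1 table per library with 27180 rows; reads were handled with bcl2fastq 1.8.4, FastQC and Trimmomatic on build mm10, per the submitters' processing notes, and the aligner and counter are not given in the sources used here. The count step decides how reads of near-identical copies are assigned. Symbols differed between ear and graft tables in 603 rows, so a row was a member if any table's symbol met the rule. Members and gene lists were chosen with earlier results of these data known.

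Counts were fitted with edgeR 4.0.16 (quasi-likelihood F test, robust, TMM factors, filterByExpr with a minimum count of 10 and total of 15) in R 4.3.3: ears in 1 fit (6 libraries, 15720 genes), grafts in another (18 libraries, 16189 genes), and all 24 (16612 genes) for grafts against ear. P-values were Benjamini-Hochberg adjusted over all genes, and a standard error is the log2 fold change divided by the root of F. Named genes were, in each comparison and complex, up to 3 higher and 3 lower members with the smallest adjusted p, the complex II genes and fixed isoform sets; further members are named to complete small counts, after their values were seen. The promoter letters for NRF1 and MEF2 were set to 9 bases after counts for a 10 base form had been seen. DESeq2 1.42.0, RLE and upper quartile factors, 2 other filters, a replicate block and leaving out each library were the alternatives. On counts simulated for day 14, E7 against C57 (16189 genes), 24.0% of genes changed by 0.5 and, of those changed by 1 on the log2 scale, 88.0% of the raised and 74.0% of the lowered were recovered. The changed genes were drawn from all genes tested, and recovery among the members was not simulated. Same-numbered graft libraries did not deviate together in more than 1 of 15 pairs of groups, so the numbers were not used as a pairing.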

Additional observations from a re-analysis of the deposited data

Results flagged for a closer look

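Members whose effect differed between conditions by a test of the difference itself are listed with the difference of log2 fold changes. Between the days, the effect of the CD1d deletion on E7 grafts was lower on day 28 for Ndufa13 (-0.54), Sdhc (-0.39), Ndufa4l2 (-1.15) and Atp5e (-0.38). Of all genes tested, 6.54% were higher and 6.31% lower. Leaving out single libraries lost the call for Atp5e in 10 fits and for Ndufa13 in 4. Between day 14 grafts and ear, the E7 effect was higher in grafts for Ndufb9 (0.36), Ndufs1 (0.33) and Sdha (0.56) and lower for Ndufa4l2 (-2.13) and Cox6a1 (-0.46). In that comparison 4.02% of all genes were higher and 8.61% lower. Between day 28 grafts and ear, the E7 effect was higher in grafts for Ndufa13 (0.63), Ndufb9 (0.38), Ndufs3 (0.51), Sdha (0.51), Sdhc (0.33), Uqcrc1 (0.38), Atp5o (0.33) and Atp5a1 (0.30), and lower for Ndufa4l2 (-1.21). Here 2.29% of all genes were higher and 5.13% lower. Leaving out single libraries lost the call for Sdhc in 8 fits, Atp5a1 in 7, Atp5o in 5 and Uqcrc1 in 1.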

How the results depend on the processing

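For E7 against C57 grafts on day 28, 37 to 47 members were higher under the other scalings, filters and tools, and 5 were lower when those groups were fitted alone. With upper quartile factors the ear comparison had 6 higher and 31 lower members, C57 grafts over time had 5 lower, and the E7 effect in grafts minus ear had 12 higher on day 14 and 21 on day 28. RLE factors gave 5 higher for that difference on day 14, and DESeq2 gave 6 on day 14 and 19 on day 28. DESeq2 also gave 2 lower members in E7 grafts over time and 1 higher for the E7 effect on day 28 minus day 14. With no low-count filter, C57 grafts over time had 5 lower members. Fitting the compared groups alone gave 10 higher members for CD1dKOxE7 against E7 on day 14 and 0 lower in E7 and in CD1dKOxE7 grafts over time. The cause of these shifts was not tested. No named member that passed changed sign under the alternatives run. The balance of all called genes crossed 50% with upper quartile factors in several comparisons, among them these: 47.9% were higher for E7 against C57 on day 28, against 58.4% with TMM factors, 52.2% against 37.1% for C57 grafts over time, and 55.2% against 31.8% for the E7 effect in day 14 grafts minus ear.

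Leaving out each library in turn gave, for E7 against C57, 11 to 20 higher and 11 to 17 lower members in ear, 9 to 16 higher and 1 to 4 lower on day 14, and 38 to 46 higher and 0 to 2 lower on day 28. For CD1dKOxE7 against E7 on day 14 it gave 9 to 19 higher and 0 to 1 lower. Over time it gave 2 to 5 higher and 7 to 11 lower in C57 grafts, 1 to 6 higher and 0 to 1 lower in E7 grafts, and 0 to 2 higher and 0 to 5 lower in CD1dKOxE7 grafts. For the CD1d deletion effect on day 28 minus day 14 it gave 0 to 1 higher and 2 to 7 lower. For C57 grafts against ear it gave 6 to 10 higher and 31 to 49 lower on day 14, and 4 to 6 higher and 44 to 56 lower on day 28. For the E7 effect in grafts minus ear it gave 2 to 5 higher and 1 to 2 lower on day 14, and 4 to 14 higher and 1 lower on day 28.

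Same-numbered libraries share only a number. With the replicate block, 16 members were higher and 4 lower for E7 against C57 on day 14, 45 and 2 on day 28, and 17 and 0 for CD1dKOxE7 against E7 on day 14. The block ended 1 named call, Ndufs3 in C57 grafts over time. Counts limit the members near the floor, Sdhd, Ndufa12 and Uqcr11, and the muscle isoforms in grafts. At 3 libraries a group, changes of 0.5 on the log2 scale were mostly missed in simulated grafts, for genes drawn from all those tested. That rate does not carry over to the members. For E7 against C57 on day 14, Atp5j and Ndufs1 were called at log2 fold changes of 0.26 and 0.28.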
